A study of Mus musculus with 15 samples.

Results

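A set of 10 genes of the T cell lineage was followed through RNA sequencing of 5 kinds of sorted epithelium. The genes are Cd3e, Cd3d, Cd3g, Cd4, Cd8a, Cd8b1, Ptcra, Rag1, Rag2 and Lck. They were taken by symbol, for their role in developing T cells, from the 50600 genes of the deposited tables. All 10 were found, and all 10 passed the filter on low counts that left 19107 genes. Their reads were taken as a measure of thymocyte RNA that came with the epithelial cells through the sort. Whether the epithelium or other cells transcribe these genes was not tested.

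The series asked why epithelia of different organs carry unequal amounts of MHC class I. Its 15 libraries came from male C57BL/6J mice aged 8 weeks, without treatment or engineered allele in any group. Of the 5 groups of 3 libraries, a pair came from the thymus, namely epithelium of its cortex (cTEC) and of its medulla (mTEC). The others were the epithelia of skin, colon and lung. Each library was made from polyA RNA of cells sorted by flow cytometry and pooled from 5 mice. The n = 3 of a group therefore counts pools, and the p-values measure the spread among these pools. For cTEC, mTEC and skin the kit was KAPA RNA Stranded PolyA, whereas KAPA RNA HyperPrep PolyA served for colon and lung. The kit and the tissue cannot be told apart where colon or lung is compared with the other groups.

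Thymocytes enter the thymus without CD4 or CD8, rearrange their T cell receptor genes with the RAG recombinase, and pass through a stage that carries both CD4 and CD8 before they keep one of them. The pre-TCR, which contains the product of Ptcra, signals after the beta chain has been rearranged, and the CD3 chains and the kinase LCK carry the signal. Cortical epithelium surrounds the stage with both coreceptors, while the medulla holds mainly cells that have kept CD4 or CD8. Very large cortical epithelial cells that enclose thymocytes, called thymic nurse cells, are also known.

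Gene reads per library ran from 12946533 to 41978665, and the sense strand held 8.43 to 19.3 times the reads of the opposite strand. Skin replicate 1 was the lowest in both. Levels are given in CPM, reads scaled to library size and composition. General epithelial markers summed to 1485 to 12290 CPM in every library, and the defining markers of each epithelium were highest in its own sort. An exception was a list of 8 mTEC markers, which summed to 7039 to 9054 CPM in mTEC and 12240 to 27690 CPM in skin. Markers of other cells had reads too. Fibroblast genes summed to 1256 to 7572 CPM in skin, 253 to 502 CPM in cTEC and 118 to 140 CPM in mTEC. Endothelial genes summed to 71.7 to 218 CPM in skin. Macrophage and dendritic genes summed to 1777 to 3303 CPM in lung, where 9 pan-leukocyte genes summed to 52.0 to 65.8 CPM. Of 13 macrophage and dendritic genes tested, 6 were higher and 1 lower in lung than in colon. Their log2 fold changes included 10.3 for Lyz2 and 9.07 for Csf1r. Over all tested genes, 30.4% were higher and 28.3% lower in lung than in colon. The source of these reads was not tested. Between pools of 1 group the chi-square per degree of freedom was 20.5 to 191, so none was a copy of another. Reads from PCR-amplified libraries are not independent molecules, and the intervals and limits given cover counting error only.

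The start regions of 4 members are shown, 1 each for recombination, the pre-TCR, the coreceptors and CD3. E-boxes, the motif CANNTG bound by E proteins that act in thymocyte development, are in capitals. The sequences are the 250 bases before the start of the gene in RefSeq for GRCm38.p6, given 5' to 3' on the gene's strand. The windows are chr2:101649533-101649782 on the minus strand for Rag1, chr17:46763713-46763962 on the minus strand for Ptcra, chr6:71373177-71373426 on the plus strand for Cd8a and chr9:45009612-45009861 on the minus strand for Cd3e.
Rag1: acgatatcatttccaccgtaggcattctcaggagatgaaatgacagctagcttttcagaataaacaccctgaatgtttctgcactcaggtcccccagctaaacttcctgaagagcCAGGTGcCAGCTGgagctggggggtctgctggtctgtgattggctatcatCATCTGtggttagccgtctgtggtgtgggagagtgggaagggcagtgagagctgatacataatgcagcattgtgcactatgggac
Ptcra: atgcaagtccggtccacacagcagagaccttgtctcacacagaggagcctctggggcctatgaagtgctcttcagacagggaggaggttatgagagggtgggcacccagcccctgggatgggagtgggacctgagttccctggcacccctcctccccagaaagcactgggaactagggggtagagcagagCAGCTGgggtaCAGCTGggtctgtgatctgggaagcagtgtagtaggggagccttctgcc
Cd8a: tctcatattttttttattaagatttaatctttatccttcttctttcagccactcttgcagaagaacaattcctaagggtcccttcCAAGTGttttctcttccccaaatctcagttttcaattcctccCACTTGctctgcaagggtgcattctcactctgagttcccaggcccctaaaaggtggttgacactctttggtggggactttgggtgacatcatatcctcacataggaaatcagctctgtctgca
Cd3e: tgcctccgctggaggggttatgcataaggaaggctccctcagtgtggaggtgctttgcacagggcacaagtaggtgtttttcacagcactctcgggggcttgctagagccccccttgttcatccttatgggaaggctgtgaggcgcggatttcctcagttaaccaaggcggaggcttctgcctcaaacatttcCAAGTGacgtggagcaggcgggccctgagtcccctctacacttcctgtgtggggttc
Rag1 held 3 E-boxes, Ptcra and Cd8a 2 each and Cd3e 1. CANNTG reads the same on both strands, and the boxes printed do not overlap. Among 32851 promoter entries of the same length, 66.2% held at least 1 E-box, 31.8% at least 2 and 12.2% at least 3. Of the 10 members 8 had an entry, 9 entries in all. Those not printed held 3 boxes for Cd3g, 1 each for Cd3d and Rag2, and 0 and 1 at the 2 starts of Lck. These matches describe letters in a window and are not binding sites.

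Reads of at least 3 of the 10 genes were found in every library, and the summed level was highest in cTEC. The 10 genes summed to 128, 94.8 and 96.4 CPM in cTEC replicates 1 to 3. In mTEC they summed to 55.7, 32.7 and 37.4 CPM. Both thymic groups lay above every extrathymic library, with no overlap between cTEC and mTEC either. The sums were 2.64, 1.41 and 6.01 CPM in skin, 4.88, 5.87 and 5.62 CPM in colon and 1.17, 0.955 and 3.78 CPM in lung. The skin and colon libraries overlapped, as did those of skin and lung, and the 3 colon pools lay above the 3 lung pools. In bulk libraries, fewer thymocytes, less RNA per thymocyte and transcription in other cells of the sort cannot be told apart.

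**Figure D1:**
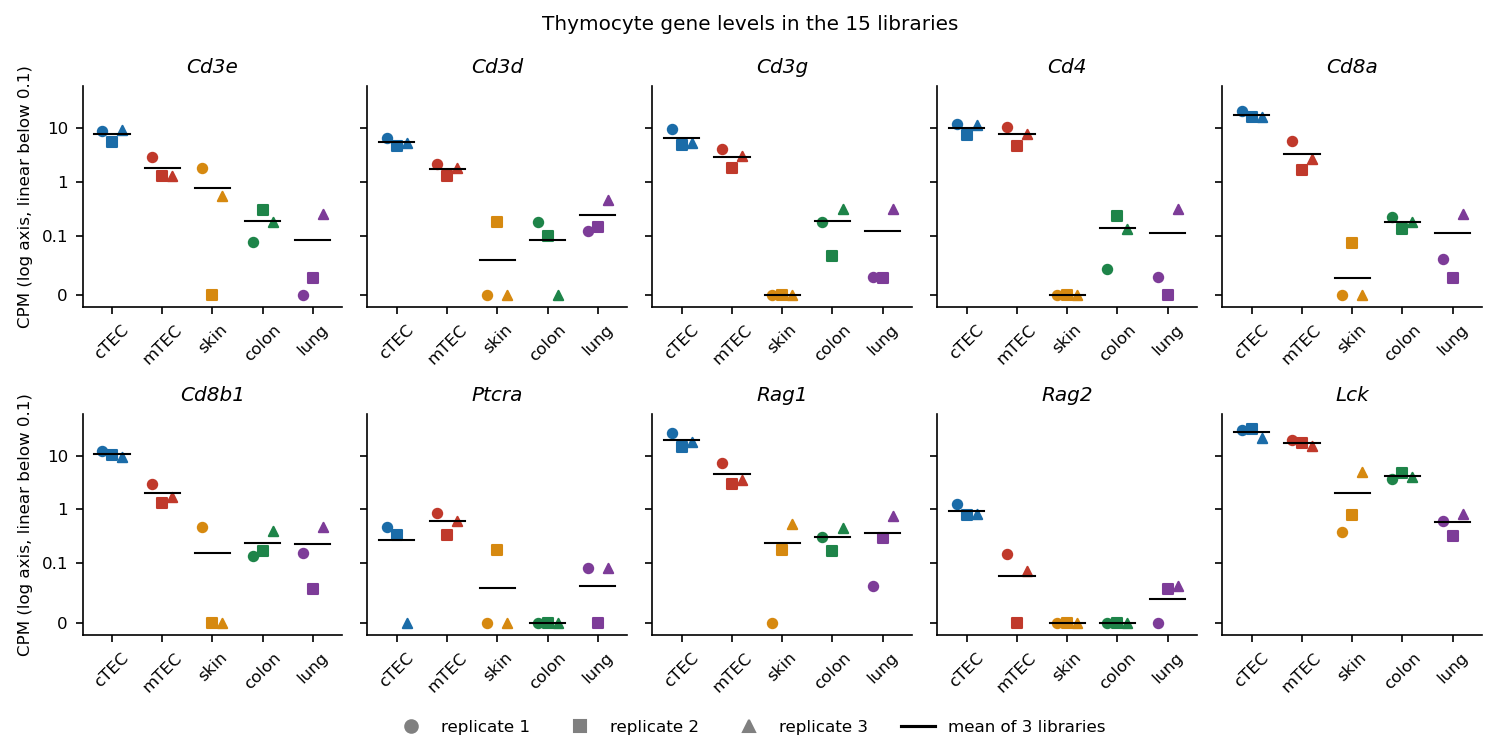
Level of each of the 10 thymocyte genes in CPM (y axis, logarithmic above 0.1 CPM and linear below) in the 3 libraries of each of the 5 groups (x axis), with a line at the group mean. For 9 genes the cTEC mean is the highest, and for Ptcra the mTEC mean is, with overlapping libraries.

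The sums hid a difference in make-up between groups. Lck made up 23.8%, 33.0% and 22.3% of the members' reads in cTEC and 35.1%, 53.2% and 40.4% in mTEC. In colon its share was 76.2%, 80.1% and 70.6%, with 95% Wilson intervals that lay between 62.2% and 85.3% in the 3 pools together. Skin ran from 14.3% of 28 reads to 81.8% of 99 reads and lung from 22.1% of 122 reads to 52.6% of 38 reads. Without Lck, the 9 other genes summed to 63.6 to 97.8 CPM in cTEC and 15.3 to 36.1 CPM in mTEC. The same sum was 0.619 to 2.26 CPM in skin, 1.16 to 1.65 CPM in colon and 0.554 to 2.94 CPM in lung, and the 3 extrathymic ranges overlapped.

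**Figure D2:**
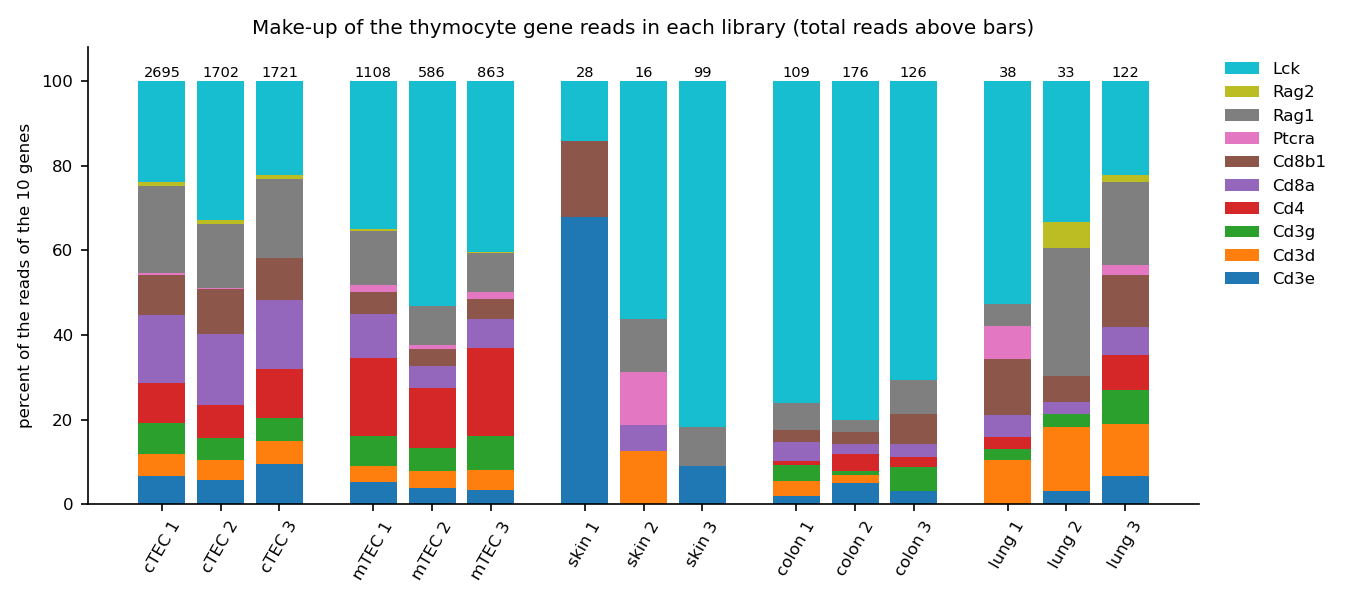
Share of each gene (y axis, percent) in the reads of the 10 thymocyte genes in every library (x axis), with the number of these reads above each bar. Lck takes 70.6% to 80.1% in colon and 22.3% to 33.0% in cTEC, and the skin bars rest on 16 to 99 reads.

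The CD3 chains, which join the T cell receptor to its signalling machinery, were all found in both thymic sorts. Cd3e, the epsilon chain, was at 8.62, 5.46 and 9.18 CPM in cTEC and 2.87, 1.28 and 1.26 CPM in mTEC. Cd3d, the delta chain, was at 6.62, 4.51 and 5.26 CPM in cTEC and 2.16, 1.28 and 1.78 CPM in mTEC. Cd3g, the gamma chain, was at 9.52, 4.85 and 5.26 CPM in cTEC and 3.97, 1.79 and 2.99 CPM in mTEC. For each chain the lowest cTEC pool lay above the highest mTEC pool. The share of all tested genes without overlap between groups was not computed. A lack of overlap, here and below, therefore describes the members only. None of the 3 passed the test across all genes with edgeR's quasi-likelihood test and Benjamini-Hochberg adjustment. The log2 fold change of mTEC against cTEC was -2.10 ± 0.84 (SE) for Cd3e (adjusted p = 0.0831), -1.65 ± 0.65 for Cd3d (0.0772) and -1.16 ± 0.65 for Cd3g (0.216). Other annotated genes overlap Cd3e (Gm48720), Rag1 (B230118H07Rik) and Lck (Mir8119) on the same strand. Reads in the shared stretches cannot be assigned by the counting.

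The coreceptors separated. Cd8a, the alpha chain of CD8, was at 20.8, 15.8 and 15.6 CPM in cTEC and 5.73, 1.68 and 2.60 CPM in mTEC. Cd8b1, the beta chain found with it on thymocytes and conventional CD8 T cells, was at 12.1, 10.1 and 9.58 CPM in cTEC and 2.97, 1.34 and 1.74 CPM in mTEC. Neither gene had overlapping libraries, and mTEC replicate 1 was the highest mTEC pool for both. Cd8a was lower in mTEC by 5.21-fold (log2 fold change -2.38 ± 0.53 (SE), edgeR adjusted p = 0.00583). Cd8b1 was lower by 5.26-fold (-2.40 ± 0.71, edgeR adjusted p = 0.024).

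Cd4, the coreceptor for MHC class II, was at 11.9, 7.47 and 11.1 CPM in cTEC and 10.3, 4.63 and 7.77 CPM in mTEC. The libraries of the sorts overlapped, and mTEC replicate 2 was the lowest of the 6. The log2 fold change was -0.43 ± 0.63 (SE), with an edgeR adjusted p of 0.669. Cd4 is also transcribed in some macrophages and dendritic cells. The 15 markers of those cells summed to 49.5 to 71.9 CPM in cTEC and to 111 to 233 CPM in mTEC, with no marker at 0 in either sort, and Lyz2 alone averaged 24.2 and 113 CPM in them. Of the 13 of them tested, 4 were higher in mTEC (Lyz2, Adgre1, Mrc1 and C1qb) and 1 lower (Cd68). The shares over all tested genes were 15.2% higher and 9.45% lower. The part of macrophages and dendritic cells in the Cd4 level was not tested.

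Transcripts of the recombinase were found in both thymic sorts. Rag1, the subunit that cuts DNA, had 556, 256 and 322 reads in the cortical pools and 143, 53 and 80 in the medullary ones, or 19.6 ± 6.25 and 4.54 ± 2.31 CPM (SD, n = 3). Rag2, its partner, had 26, 14 and 15 against 3, 0 and 2 reads. Neither gene overlapped between the sorts. In mTEC, Rag1 was lower by 4.31-fold (log2 fold change -2.11 ± 0.64 (SE), edgeR adjusted p = 0.0268) and Rag2 by 11.1-fold (-3.47 ± 0.91, edgeR adjusted p = 0.0201). The Rag2 fold rests on 5 mTEC reads in all. No library outside cTEC had more than 3 Rag2 reads, so the gene passed the filter on low counts through cTEC. A lower level elsewhere was thus largely set by the filter, also in its calls against groups outside the thymus. Rag2 had a result in 24 of the 25 alternatives. Immature B cells also use the recombinase. Of 9 B cell genes tested, 4 were higher in mTEC and 0 lower, where 15.2% of all tested genes were higher and 9.45% lower. The 11 listed summed to 35.2 to 100.3 CPM in cTEC and 69.7 to 142 CPM in mTEC. They summed to 213 to 278 CPM in colon, so the sum was not particular to the thymus. Blnk, an adaptor of B cell receptor signalling, alone averaged 9.33 and 64.8 CPM in the sorts. Igll1, a surrogate light chain gene of B cell precursors, was at 0.530 ± 0.459 CPM in cTEC and 2.21 ± 1.17 CPM in mTEC (SD, n = 3). Ms4a1 was at 0 in cTEC, and the part of B cells in the Rag1 level was not tested.

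Ptcra, the pre-TCR alpha chain, was scarce in both sorts and did not follow the other members. Its reads numbered 10, 6 and 0 in the cortical pools and 17, 6 and 14 in the medullary ones. The libraries overlapped, and the log2 fold change of 1.12 ± 1.02 (SE) did not pass the test (edgeR adjusted p = 0.463). The authors' RSEM estimates, which also divide reads that match several places, were 11, 21 and 0 in cTEC and 22, 8 and 19 in mTEC. Plasmacytoid dendritic cells also transcribe Ptcra, and their part was not tested. Flt3, a receptor of dendritic cells that does not single out the plasmacytoid kind, was at 1.48 ± 1.39 CPM in cTEC and 2.79 ± 2.02 CPM in mTEC (SD, n = 3). It did not pass between the sorts (edgeR adjusted p = 0.527). Siglech, the plasmacytoid marker in the same list, was removed by the filter on low counts.

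Lck, the kinase that starts signalling from CD4 and CD8, was the most abundant member in both sorts. It was at 30.5, 31.3 and 21.5 CPM in cTEC and 19.6, 17.4 and 15.1 CPM in mTEC. The libraries did not overlap, yet the log2 fold change of -0.68 ± 0.54 (SE) missed the threshold (edgeR adjusted p = 0.39). Per kilobase of transcript, Lck was at 17.2 CPM in cTEC and 10.8 CPM in mTEC. In cTEC, Cd8b1, Cd8a and Cd3g followed with 7.16, 6.84 and 6.39 CPM per kilobase. In mTEC, Cd4 and Cd3g followed with 3.18 and 2.85 CPM per kilobase and Cd8a stood at 1.31. Rag1 was at 2.96 and 0.687 CPM per kilobase in the cortical and medullary sorts, and Ptcra at 0.211 and 0.467.

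Over the set, 4 of 10 members were lower in mTEC than in cTEC and 0 higher (edgeR). The background is that 9.45% of all tested genes were lower and 15.2% higher. Rag2, 1 of the 4 members, entered the test through its cTEC reads. At an unadjusted p under 0.05, 6 were lower and 0 higher, and DESeq2 called 5 lower and 0 higher. The median log2 fold change of the members was -1.87, against 0.07 over all tested genes. The count depended on the fit. Same-numbered cTEC and mTEC pools deviated together, and with the replicate number as a block in a fit of these 6 libraries, chosen after the data were seen, 8 members were lower. In that fit Cd3e, Cd3d, Cd3g and Lck passed as well, at adjusted p of 0.000574, 0.00171, 0.00673 and 0.00381. Cd4 had 0.0771 there, and Ptcra was removed by the filter on low counts. The 6 libraries without the block also gave 8, and the block in the fit of all 15 libraries gave 4. Without cTEC replicate 1, mTEC replicate 2 or mTEC replicate 3 the count was 1, and without mTEC replicate 1 it was 2. Cd8a passed in each of the 25 alternatives, with adjusted p from 7.37e-05 to 0.031.

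**Figure D3:**
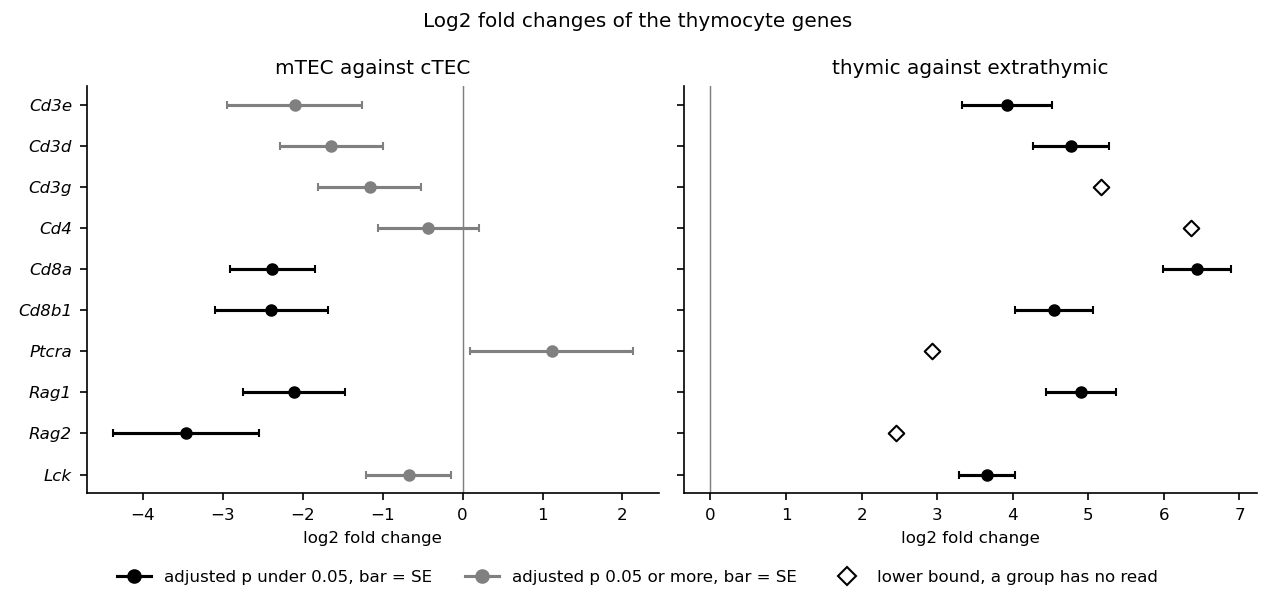
Log2 fold changes (x axis) of the 10 genes for mTEC against cTEC and for thymic against extrathymic epithelium, with SE bars and black points for adjusted p under 0.05. Open diamonds are lower bounds for genes without a read in a group. Cd8a, Cd8b1, Rag1 and Rag2 lie left of 0 in black at the left, and all 10 genes lie right of 0 at the right.

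Ratios between members within a library do not depend on library size. They were set side by side because the genes mark different stages, and the part of myeloid and B cells in Cd4, Ptcra and Rag1 was not tested. Rag1 had 3.07, 2.61 and 1.96 reads per Cd3e read in cTEC and 2.51, 2.30 and 2.76 in mTEC. These values overlapped, and the mean log2 ratio was 1.32 in both sorts, with an SD of 0.33 in cTEC and 0.13 in mTEC. The exact two-sided permutation test gave p = 1 for the Rag1 to Cd3e ratio. Its smallest possible p is 0.1 with 3 against 3 libraries, so none of the 4 ratios could reach 0.05.

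Cd4 had 0.572, 0.474 and 0.713 reads per Cd8a read in cTEC and 1.79, 2.77 and 2.98 in mTEC. The sorts did not overlap: Cd8a reads outnumbered Cd4 reads in every cTEC pool and Cd4 reads outnumbered Cd8a reads in every mTEC pool. The mean ratio was 4.21-fold higher in mTEC, 2.08 on the log2 scale (exact permutation p = 0.1, 0.2 adjusted over 4 ratios). Cd8b1 had 0.584, 0.643 and 0.613 reads per Cd8a read in cTEC and 0.518, 0.8 and 0.667 in mTEC, which overlapped (exact permutation p = 0.7, 0.933 adjusted). The ratio of the CD8 chains moved by 0.09 on the log2 scale while that of the coreceptors moved by 2.08.

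Ptcra had 0.0553, 0.0612 and 0 reads per Cd3e read in cTEC and 0.298, 0.261 and 0.483 in mTEC. The sorts did not overlap (exact permutation p = 0.1, 0.2 adjusted). The difference of 3.93 on the log2 scale depends on the 0.5 reads added to each count, since cTEC replicate 3 had no Ptcra read. Without that pool it was 2.49.

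**Figure D4:**
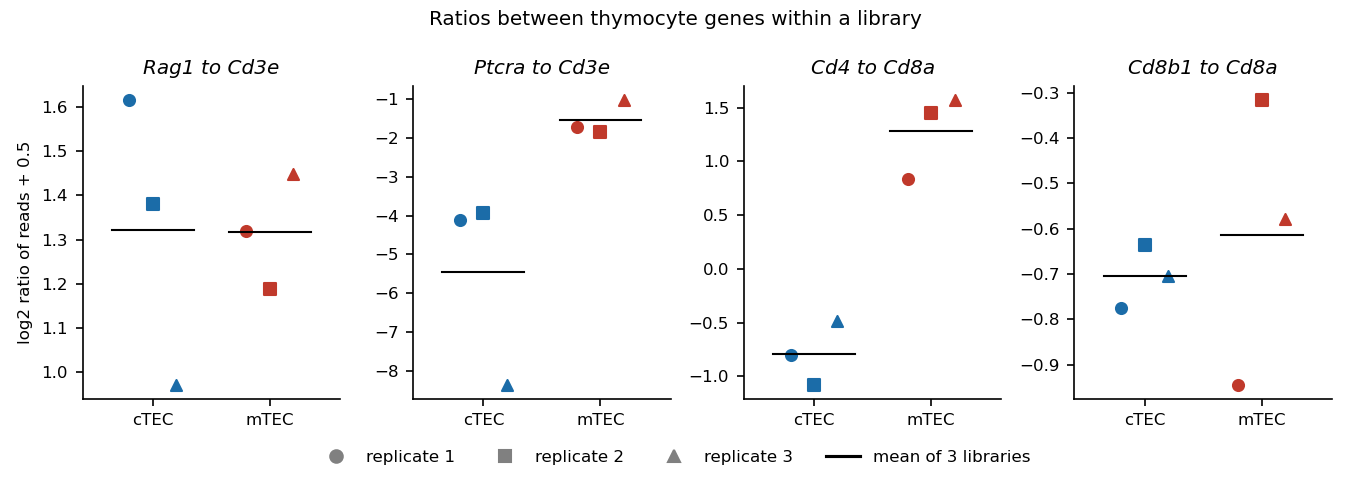
Log2 ratio of reads, with 0.5 added to each count (y axis), for 4 pairs of members in the 3 cTEC and 3 mTEC libraries (x axis), with lines at the means and a y range of its own in each panel. The Cd4 to Cd8a and Ptcra to Cd3e ratios do not overlap between the sorts, and the Rag1 to Cd3e and Cd8b1 to Cd8a ratios do.

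Skin, prepared with the same kit as the thymic sorts, was the comparison outside the thymus that lies within 1 kit. The thymic level, averaged over both sorts on the log2 scale, was higher than that of skin for 9 of 10 members and lower for 0 (edgeR), where 35.6% of all tested genes were higher and 25.6% lower. At an unadjusted p under 0.05 and in DESeq2, 9 were higher and 0 lower. Skin had no read of Cd3g, Cd4 or Rag2 in any pool, which allows up to 0.0781 CPM. With skin at 3 reads and the thymic sorts at their means, thymic Cd4 was 112-fold higher, Cd3g 56.0-fold and Rag2 3.52-fold. Cd8a had 1 skin read and Cd3d 2. The pooled ratio of cTEC to skin was 676 for Cd8a (95% counting interval 121 to 26710) and 106 for Cd3d (29.2 to 881). For mTEC to skin these ratios were 129 (22.9 to 5112) and 33.8 (9.13 to 283). Rag1 was 34.2-fold higher in the thymic sorts (log2 5.10 ± 0.79 (SE), edgeR adjusted p = 7.06e-05) and Cd8b1 32.4-fold higher (5.02 ± 0.91, 0.000269).

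Lck and Cd3e had the smallest fitted folds over skin among the 9 that passed. Lck had 4, 9 and 81 reads in skin, and was 10.3-fold higher in the thymic sorts (log2 3.36 ± 0.58 (SE), edgeR adjusted p = 0.00017). Cd3e had 19, 0 and 9 skin reads and was 4.88-fold higher (2.29 ± 0.84, edgeR adjusted p = 0.029). Skin replicate 1 overlapped mTEC for Cd3e, and the call was lost without mTEC replicate 1 (adjusted p = 0.0565), skin replicate 2 (0.0633) or skin replicate 3 (0.0579). Ptcra, with 0, 2 and 0 skin reads, did not pass (2.80 ± 1.30, edgeR adjusted p = 0.0783). It passed without cTEC replicate 3 (adjusted p = 0.0311) or skin replicate 2 (0.0389). With RSEM estimates of 8, 3 and 20 in skin, its log2 fold change was -0.17. The reason for the gap between the estimates and the counted reads was not tested.

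Against the 3 extrathymic groups together, all 10 members were higher and 0 lower in thymic epithelium (edgeR and DESeq2), where 37.3% of tested genes were higher and 26.9% lower. An unadjusted p under 0.05 gave the same 10 and 0. The median log2 fold change was 4.72, or 4.66 with groups without reads at 3 reads, against 0.14 over all tested genes. Cd8a was 86.8-fold higher (log2 6.44 ± 0.45 (SE), edgeR adjusted p = 1.33e-08). With skin at 3 reads and the other groups at their means, Cd4 was 82.1-fold and Cd3g 36.0-fold higher. Thymic and extrathymic libraries overlapped for Cd3e, Ptcra and Rag2 and not for the 7 others. The share of all tested genes without such overlap was not computed, so the 7 describe the members only. Ptcra passed (edgeR adjusted p = 0.00192). Its fold was 7.64 with colon at 3 reads, and skin and lung kept the levels of their 2 and 6 reads. With RSEM estimates, which were 10 to 15 in the colon pools where no read was counted, the Ptcra call ended (log2 0.80, edgeR adjusted p = 0.246). This comparison and that with skin share libraries.

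Outside the thymus most members were at a few reads. Rag2 had 0 reads in skin and colon, which allows up to 0.0401 CPM in colon, and 0, 2 and 2 in lung. Cd4 had 1, 7 and 3 reads in colon and 1, 0 and 10 in lung, and Cd8a had 5, 4 and 4 in colon and 2, 1 and 8 in lung. Rag1 had 7, 5 and 10 reads in colon, 2, 10 and 24 in lung and 0, 2 and 9 in skin. Lung replicate 3 held the most reads of the lung pools for 8 of the 10 members and tied for Ptcra and Rag2.

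Lck was the exception. It was at 3.72, 4.70 and 3.97 CPM in colon and 0.615, 0.318 and 0.836 CPM in lung, without overlap. The log2 fold change of lung against colon was -2.80 ± 0.62 (SE), 6.98-fold lower (edgeR adjusted p = 0.00124). It passed in all 24 alternatives, with adjusted p from 2.06e-06 to 0.00827. It was the 1 member lower in lung, where 28.3% of tested genes were lower and 30.4% higher. No member was higher in lung with edgeR, none at an unadjusted p under 0.05 and none with DESeq2. Without lung replicate 3 the number lower was 2. Of 13 gamma delta and intraepithelial T cell genes, which summed to 48.7 to 50.3 CPM in colon and 19.7 to 27.8 CPM in lung, Sox13 alone held 47.4 to 48.8 CPM in colon and 19.2 to 27.2 CPM in lung. In colon Itgae, an integrin chain of intraepithelial lymphocytes, was at 0.781 ± 0.0595 CPM, Trdc at 0.138 ± 0.0397 CPM and Tcrg-C1 at 0.0409 ± 0.00655 CPM (SD, n = 3 pools), and Blk had no read.

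Skin against colon and lung gave 1 member higher and 1 lower (edgeR), where 27.6% of tested genes were higher and 32% lower. Cd3e was higher in skin (log2 fold change 2.46 ± 0.87 (SE), adjusted p = 0.0244), and 19 of its 28 skin reads were in replicate 1. In that pool 46.9% of reads lay outside single genes, against 35.4% and 31.8% in skin replicates 2 and 3. Without that pool the log2 fold change was 1.14 (adjusted p = 0.364). Cd3g was lower (adjusted p = 0.0438), from 4, 2 and 7 reads in colon and 1, 1 and 10 in lung to none in skin. With skin at 3 reads and colon and lung at their means, its fold was 1.94. The Cd3g call was lost with upper quartile scaling (adjusted p = 0.054) and without cTEC replicate 2 or 3, mTEC replicate 3, any 1 skin pool, colon replicate 1 or 3 or lung replicate 3, where the adjusted p reached 0.124. Lck in skin differed from the mean of colon and lung by 0.45 ± 0.52 (edgeR adjusted p = 0.483), and by -1.41 without skin replicate 3 (0.0113).

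Other genes of the T lineage gave context for the members. Between mTEC and cTEC, 15.2% of all tested genes were higher in mTEC and 9.45% lower. Of 20 genes of T cell receptor signalling and T lineage identity, all tested, 0 were higher and 5 lower in mTEC than in cTEC, with a median log2 fold change of -0.71. The 5 were Prkcq, Trbc2, Trbc1, Lat and Cd27. Trbc1, a receptor beta constant gene, fell from 9.54 ± 1.54 CPM in cTEC to 2.37 ± 0.828 CPM in mTEC (SD, n = 3 pools, edgeR adjusted p = 0.0123), while Trac, the alpha constant gene, did not pass (log2 fold change -1.09 ± 0.53 (SE), edgeR adjusted p = 0.154). Among 7 genes of the double-positive stage 2 were lower and 0 higher, with a median of -1.32. These were Endou and Dntt, the terminal transferase that adds bases at receptor joints. Endou was also lower in the thymic sorts than in skin (log2 fold change -2.68 ± 0.35 (SE), edgeR adjusted p = 1.27e-05). The 7 genes summed to 54.9 to 75.1 CPM in cTEC, 30.5 to 41.6 CPM in mTEC and 50.7 to 62.4 CPM in skin. That sum was therefore not particular to the thymus. The Dntt reads numbered 396, 197 and 276 in cTEC and 97, 35 and 69 in mTEC (-2.20 ± 0.65, edgeR adjusted p = 0.0267).

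Genes of earlier and later stages were counted in the same way, and the lists were not tested against each other. Of 5 double-negative genes 1 was higher in mTEC and 0 lower, with a median of 1.24, where 15.2% of all tested genes were higher and 9.45% lower. It was Il2ra, the interleukin-2 receptor alpha chain, with 481, 257 and 204 cortical against 1128, 963 and 1002 medullary reads (log2 fold change 1.66 ± 0.42 (SE), edgeR adjusted p = 0.011). The 10 members together had 1108, 586 and 863 reads in the same medullary pools. Which cells gave the Il2ra reads was not tested. The 5 genes summed to 95.9 to 125 CPM in cTEC and 192 to 211 CPM in mTEC. They summed to 198 to 239 CPM in skin, 189 to 243 CPM in colon and 318 to 356 CPM in lung, so the sum was not particular to the thymus. Of 9 genes tested from 11 of single-positive and mature T cells, Ccr7 was higher and Itgb7 and Klf2 were lower, with a median of 0.05. Ccr7, a chemokine receptor of mature thymocytes and of dendritic cells, rose by 1.23 ± 0.38 on the log2 scale (SE, edgeR adjusted p = 0.032). Of 10 gamma delta and intraepithelial genes tested from 13, Gzmb and Xcl1 were higher and 0 lower, with a median of 0.54. Trdc, the delta constant gene, had 60, 36 and 26 cortical against 19, 5 and 20 medullary reads (-1.57 ± 0.80, edgeR adjusted p = 0.171).

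Among the receptor constant genes, Trbc2 was lower in the thymic sorts than in skin, where it had 339, 516 and 427 reads (log2 fold change -1.22 ± 0.26 (SE), edgeR adjusted p = 0.00108). Trbc1 was higher in the thymic sorts (1.96 ± 0.50, edgeR adjusted p = 0.00349), as were Trac (1.79 ± 0.52, 0.00804) and Trdc (5.25 ± 1.21, 0.00179). Trac had 7, 14 and 37 skin reads, Trdc had 1, 0 and 0, and Tcrg-C1 had none. Thy1, a surface protein of T cells that other cells also carry, had 833, 1371 and 2196 skin reads, more than in any thymic library. Of the 20 T lineage genes, 15 were higher and 3 lower in the thymic sorts than in skin, where 35.6% of all tested genes were higher and 25.6% lower. Their median was 2.68, beside a members' median of 5.38, or 5.06 with groups without reads at 3 reads.

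Leukocyte markers outside the T lineage that passed between the thymic sorts (edgeR) were higher in mTEC, except Cd68. Median log2 fold changes of mTEC against cTEC were 2.04 for B cell genes and 1.82 for macrophage and dendritic genes. Of all tested genes, 15.2% were higher in mTEC and 9.45% lower. A list of 9 pan-leukocyte genes summed to 436 to 505 CPM in cTEC and 491 to 738 CPM in mTEC, with 2 higher in mTEC (Laptm5 and Rac2), 0 lower and a median log2 fold change of 0.09. The 5 natural killer cell markers summed to 0.613 to 4.42 CPM in cTEC and 2.18 to 4.17 CPM in mTEC, and Ncr1 was at 0 in both. Among the mTEC pools, replicate 2 had the lowest sum for the members, B cell, macrophage and dendritic, and pan-leukocyte lists alike. Among the cTEC pools, replicate 1 was the highest for the members (128 CPM), for B cell genes (100.3 CPM) and for macrophage and dendritic genes (71.9 CPM). Replicate 3 was the highest for pan-leukocyte genes (505 CPM, against 484 CPM in replicate 1) and for natural killer cell genes (4.42 CPM). The part of these cells in the members' levels was not tested.

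**Figure D5:**
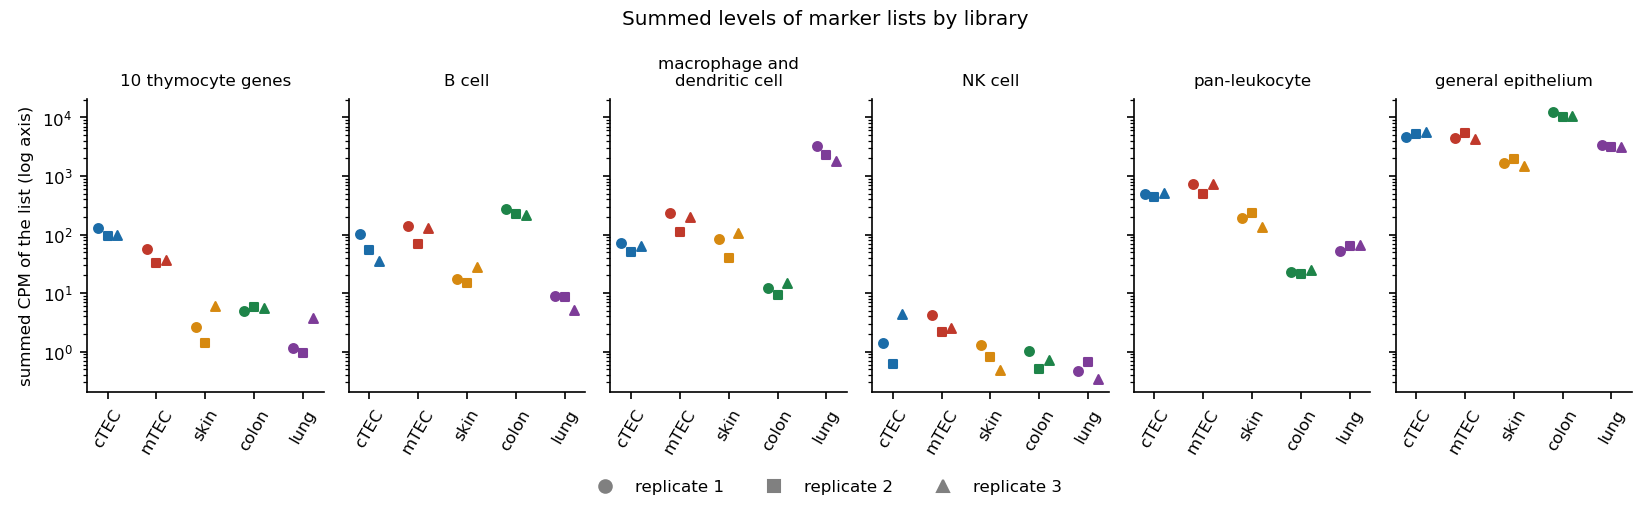
Summed CPM (y axis, logarithmic) of the 10 thymocyte genes and of 5 marker lists in the 3 libraries of each group (x axis). The thymocyte genes are higher in cTEC than in mTEC in all libraries, macrophage and dendritic genes are lower, and the general epithelial list stays above 1485 CPM throughout.

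Across the 15 libraries each member's log2 CPM was set beside the mean of the 9 others, as a description of points that share groups and depth. Pearson's r ran from 0.631 for Ptcra to 0.988 for Cd8a. Within the 6 thymic libraries it was -0.38 for Ptcra, 0.761 for Cd4 and 0.861 to 0.985 for the other 8. Of 11867 other coding genes with at least 5 CPM in cTEC or mTEC, Dntt was most like the members' mean over the 15 libraries (r = 0.987), with r = 0.982 over the 6 thymic ones. The next 9 were Prr32, C1ql3, Isl2, Ccl25, Gm16485, Fgf14, Umodl1, Psmb11 and Cdh8, with r from 0.970 to 0.981. Over the thymic libraries their r ran from 0.692 to 0.923. Of the 10, only Dntt stands in a T lineage list used here. Ccl25, a chemokine of cortical epithelium, and Psmb11, its proteasome subunit, are cTEC markers, at 1121 and 332 CPM in cTEC and 171 and 19.2 CPM in mTEC.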

How the data were processed

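Per the labels' protocols, RNA of sorted cells was purified with TriZol and RNeasy columns. Per the submitters' processing notes, the tools were bcl2fastq 2.20, STAR 2.5.1b and RSEM 1.2.28, with genome GRCm38. Which annotation release they used was not given in the sources used here. For each library the authors deposited read counts per gene, and the sense-strand column was used, without its lines of reads outside genes. The authors also deposited RSEM expected counts, which were rounded and used as an alternative, and TPM, which was not used. Of 50600 genes 50376 matched GENCODE M21, and 224 did not.

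Counts were scaled with TMM in edgeR 4.0.16 and filtered with filterByExpr by group. A model with 1 term per group over 15 libraries was tested with the quasi-likelihood F-test, Benjamini-Hochberg adjustment over 19107 genes and a threshold of 0.05. An SE is the log2 fold change divided by the square root of F. A thymic or extrathymic value is the mean of its groups' log2 levels. CPM per kilobase uses the mean transcript length of the deposited RSEM tables. Folds against groups without reads used 3 reads over the group. Replicate numbers were taken to pair cTEC with mTEC, since the deviations of same-numbered pools correlated at 0.29, 0.278 and 0.156; this comes from the data, as the labels give only numbers. The steps were tested on simulated data.

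The members and the 18 other lists were chosen with earlier results of these data known. All 10 members are described, and other lists by counts with up to 3 genes named by smallest p. Where more are named (the 5 T lineage genes, the 4 myeloid genes, Trac, Trbc1, Trbc2, Trdc, Itgae, Sox13, Thy1, Tcrg-C1, Flt3, Siglech and Igll1), they were chosen after their values were seen. Genes of like pattern were the 10 with the highest r with the members' mean. Alternatives were other scalings, filters and tools, RSEM counts, unstranded counts, thinning, the replicate block, fewer groups in the fit and leaving out each library.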

Additional observations from a re-analysis of the deposited data

How the results depend on the processing

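With 3 pools per group and, outside the thymus, mostly under 10 reads per gene, direction and calls of single members there carry little weight. Counts of members that passed stayed within 1.5 times, under every alternative run, for thymic against skin and thymic against all extrathymic groups (8 to 10 higher, 0 lower). For mTEC against cTEC the 4 lower became 8 with only the groups compared and 8 with the replicate block in these groups alone, an alternative chosen after seeing the data, and ranged from 1 to 6 when single libraries were left out. With the replicate block in the fit of all groups 4 were lower there. For skin against colon and lung, 0 were higher with thinning to the smallest library, the replicate block or only the groups compared, and 0 to 1 with libraries left out. There, 0 were lower with upper quartile scaling or only the groups compared, 2 with thinning or DESeq2, and 0 to 2 with libraries left out. For lung against colon 1 to 2 were lower with libraries left out. Apart from the calls named here and in the results, the replicate block changed no other count of members.

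The following log2 values changed sign, and the cause was not tested. Ptcra in thymic against skin was -0.17 with RSEM counts. In skin against colon and lung, Ptcra ranged from -1.80 to 2.31, Rag1 from -1.82 to 0.20 and Lck from -1.41 to 0.90 with libraries left out, and Rag1 was 0.025 after thinning. In lung against colon, leaving out libraries gave -2.38 to 0.045 for Cd3g, -2.84 to 0.29 for Cd4, -1.09 to 0.54 for Cd8b1 and -0.75 to 0.76 for Rag1. Thinning there gave 0.60 for Cd8a and -0.35 for Rag1, and RSEM counts gave -1.82 for Ptcra. The Rag1 to Cd3e difference was 0.035 with RSEM counts and -0.18 to 0.14 with libraries left out, and that of Cd8b1 to Cd8a -0.056 to 0.26. With pools paired by replicate block, the Cd4 to Cd8a and Ptcra to Cd3e ratios had exact sign-flip p = 0.25, the smallest that 3 pairs allow.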
